A study of Mus musculus with 9 samples.

Results

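The calprotectin and stefin A cluster genes are 8 rows of a deposited mouse expression table of 18571 genes. They were selected by symbol and comprise the 2 subunits of calprotectin (S100a8 and S100a9) and 6 genes of the stefin A cluster (Stfa1, Stfa2, Stfa3, Stfa2l1, Cstdc4 and Cstdc5). They were picked because neighbouring genes changed together in the libraries of the conditional knockout described next, so the levels in those libraries chose them. Their differences from the other groups in those libraries are therefore given as descriptions, without a test.

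The study asked what connexin 43 (Cx43, encoded by Gja1) does in microglia of an Alzheimer's disease model. Mice on a C57BL/6J background were sampled at 9 months of age, and cells of their cortex and hippocampus were captured with an antibody to CD45, a surface protein of white blood cells in general, so the capture itself does not separate microglia from other white blood cells. Each of 3 groups had 3 poly-A RNA libraries, read as single 50-nt reads. The groups were wild type mice, APP/PS1 mice, which carry transgenes that lead to amyloid deposits, and APP/PS1:Cx3cr1-CreER:Cx43-flox/flox mice, called cKO here. CreER in the last group is a tamoxifen-activated recombinase driven by Cx3cr1, a gene of microglia and of some blood and tissue myeloid cells. All 3 groups received tamoxifen at 8 months of age, 0.1 mg/g on 5 days, and neither control group carried CreER or the floxed Cx43 gene, so the effects of CreER and of Cx43 loss cannot be told apart.

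S100A8 and S100A9 are small calcium-binding proteins that pair to form calprotectin. Calprotectin is a major cytosolic protein of neutrophils, binds zinc and manganese, and acts outside cells on receptors such as TLR4 and RAGE. Stefins are small intracellular inhibitors of cysteine cathepsins, and the mouse carries the stefin A gene in many near-identical copies, several of which are used in neutrophils and their bone marrow precursors. Resident microglia of the healthy brain are known for very low levels of both families.

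Total estimated counts ranged from 18907681 to 19565354 per library. Gja1 held 642 to 716 counts in wild type, 688 to 788 in APP/PS1 and 484 to 539 in cKO. Cx3cr1 held 45009 to 46438, 40701 to 41747 and 22379 to 23536 counts in the same order. The Y-linked gene Ddx3y held 4137 to 4538 counts in the 6 control libraries and 0, 1 and 2 counts in cKO, so the sex of the animals and the cKO genotype cannot be told apart. All 8 microglia markers listed for the label check were present, with a summed level of 16843 to 17218 TPM (a transcript level scaled for gene length and for the library total) in wild type, 16609 to 16906 in APP/PS1 and 16096 to 16366 in cKO. The sum hides changes of single markers. In the edgeR test used below, 4 were called higher and 3 lower in APP/PS1 than in wild type. Of all tested genes, 26.9% were called higher and 32.0% lower. In cKO against APP/PS1, 1 marker was called higher and 5 lower, beside 27.3% and 27.7% of all tested genes. Markers of neutrophils were also present in every library, as described with the results they move with.

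All 8 genes were lowest on average in APP/PS1, intermediate in wild type and highest in cKO. The calprotectin genes stood at 1138 to 1588 TPM in APP/PS1 and 9162 to 10647 TPM in cKO, and the stefin A genes were lower by more than an order of magnitude in every library. In APP/PS1 against wild type, the comparison that leaves out the cKO levels, 6 of the 8 genes were called lower by the edgeR quasi-likelihood test at an adjusted p under 0.05 (S100a8, S100a9, Stfa2l1, Cstdc4, Stfa1 and Stfa2), where 32.0% of all 14696 tested genes were called lower. The same 6 were lower without overlap between the groups, as were 34.6% of all tested genes. Cstdc5 and Stfa3 were not called, and both passed the filter on low counts only through the cKO libraries. The APP/PS1 libraries are also a reference of the cKO comparison, so a low APP/PS1 level favours the choice of a gene as well as this call. The groups of cKO and APP/PS1 did not overlap for any of the 8 genes, where 29.4% of tested genes were higher without overlap. Against wild type the same held for all 8 genes, where 27.9% of tested genes were higher without overlap. The choice of the genes used these levels, so nothing is read from those counts.

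**Figure D1:**
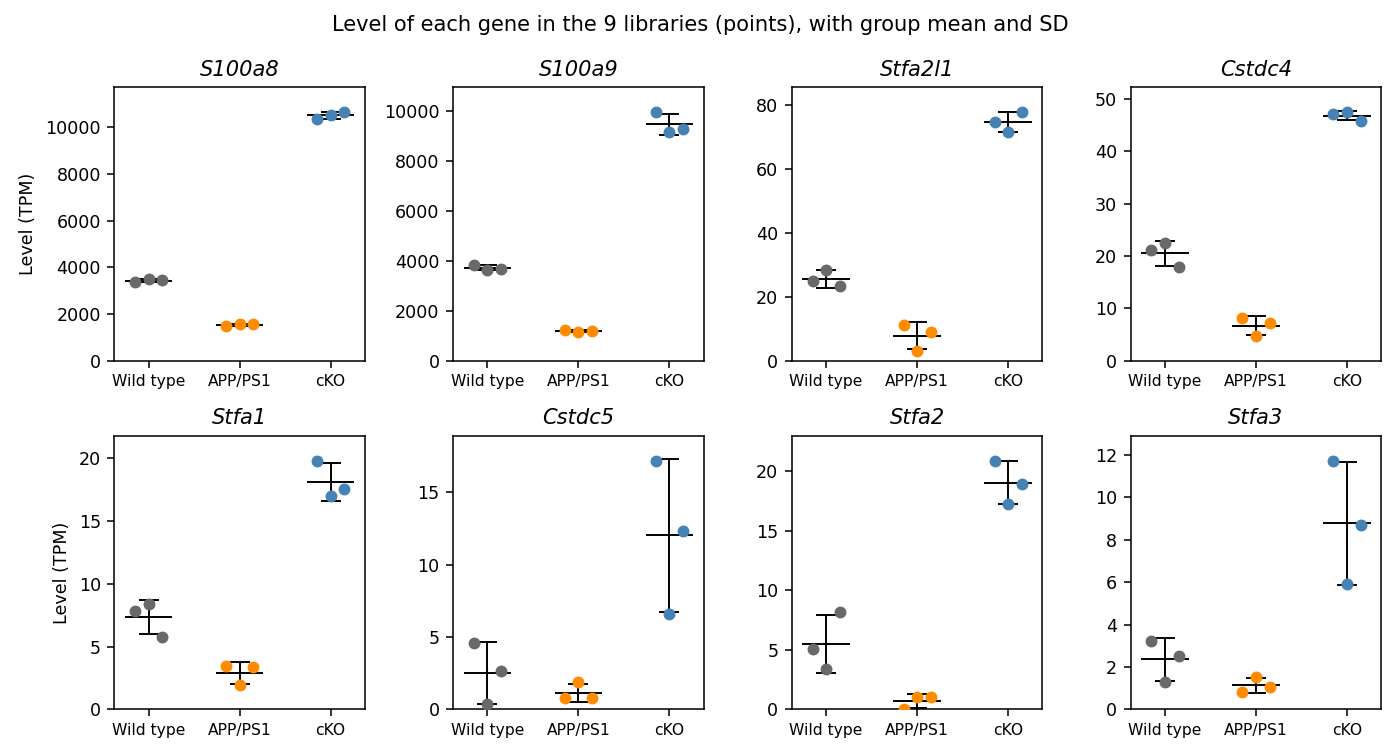
Level of each gene in TPM on a linear axis from 0 (points: the 3 libraries of each group; long line: mean; error bar: SD). All 3 cKO libraries lie above the other 6 in each panel, and wild type and APP/PS1 overlap for Cstdc5 and Stfa3.

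The calprotectin genes lie on chromosome 3 within 26.7 kb (GRCm38.p6), S100a8 at chr3:90669071-90670034 and S100a9 at chr3:90692630-90695721. They are read in opposite directions. The 250 bases before each annotated start are shown because both genes moved together, at chr3:90668821-90669070 (plus strand) and chr3:90695722-90695971 (minus strand), from the RefSeq promoter table of GRCm38.p6, 5′ to 3′ on the strand of the gene. Capitals mark matches to 3 sets of letters searched on both strands, GAGGAA for the myeloid factor PU.1 (TTCCTC on the other strand), TTGCNNAA for C/EBP factors and TATAAA for the TATA box. In S100a8 the second PU.1 match runs directly into the TATA match, without overlap.
S100a8: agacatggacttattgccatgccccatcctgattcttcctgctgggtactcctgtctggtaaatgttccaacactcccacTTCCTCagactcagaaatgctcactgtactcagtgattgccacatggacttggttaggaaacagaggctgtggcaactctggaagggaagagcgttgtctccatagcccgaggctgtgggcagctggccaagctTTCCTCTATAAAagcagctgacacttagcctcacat
S100a9: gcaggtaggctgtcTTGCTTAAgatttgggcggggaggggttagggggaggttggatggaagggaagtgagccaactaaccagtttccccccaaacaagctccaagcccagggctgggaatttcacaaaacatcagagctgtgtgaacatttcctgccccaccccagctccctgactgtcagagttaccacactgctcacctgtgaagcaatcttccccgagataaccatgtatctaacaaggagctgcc
S100a8 held TTCCTC at positions -170 and -36 and TATAAA at -30 from its start. S100a9 held TTGCTTAA at -236, and its TATAAA begins at the annotated start itself, outside the bases shown. Over all 32851 promoters of 300 bases (250 before and 50 after the start), 28.3% held the PU.1 letters, 10.8% the C/EBP letters and 13.6% the TATA letters. A match of letters is a description and not a binding site.

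S100a8, the smaller subunit, had 9812, 10376 and 10234 counts in the 3 wild type libraries (replicate order is kept throughout), 5237, 5548 and 5631 in those of APP/PS1 and 32573, 33718 and 34104 in cKO. The 3 groups did not overlap, and the libraries of a group lay close together. Its level was 3439 TPM ± 67.7 in wild type, 1549 TPM ± 45.8 in APP/PS1 and 10511 TPM ± 145 in cKO (SD, n = 3). S100a8 fell in APP/PS1 against wild type by a log2 change of -0.76 (SE 0.03, 1.69-fold lower, edgeR adjusted p = 5.44e-18). In cKO its log2 difference was 2.57 (SE 0.03, 5.93-fold) from APP/PS1 and 1.81 (SE 0.03, 3.51-fold) from wild type.

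S100a9, the larger subunit, had 15487, 14934 and 15156 counts in wild type, 5982, 5599 and 5939 in APP/PS1 and 43317, 40593 and 41086 in cKO. Again no group overlapped another. Its level was 3725 TPM ± 105 in wild type, 1195 TPM ± 51.6 in APP/PS1 and 9464 TPM ± 431 in cKO (SD, n = 3). S100a9 fell in APP/PS1 against wild type by a log2 change of -1.25 (SE 0.03, 2.37-fold lower, edgeR adjusted p = 9.04e-20). The log2 difference of S100a9 in cKO was 2.79 (SE 0.04, 6.92-fold) from APP/PS1 and 1.54 (SE 0.03, 2.91-fold) from wild type. In bulk RNA, fewer cells of a type and less RNA per cell cannot be told apart, for these and all later genes.

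The 2 subunits did not keep the same proportion. On the TPM scale the ratio of S100a8 to S100a9 was 0.876, 0.961 and 0.934 in wild type, 1.21, 1.37 and 1.31 in APP/PS1 and 1.04, 1.15 and 1.15 in cKO. On this scale S100a9 led in every wild type library and S100a8 in each of the other 6. In counts S100a9 was the higher in all 9 libraries, with ratios of 0.634 to 0.695 in wild type, 0.875 to 0.991 in APP/PS1 and 0.752 to 0.831 in cKO, so which subunit leads rests on the scaling for length, while the order of the groups was the same on both scales. The mean ratio was 0.924 ± 0.0433 in wild type and 1.30 ± 0.0809 in APP/PS1 (SD, n = 3; two-sided exact permutation p = 0.1, the smallest that 3 against 3 allows; 0.22 after Benjamini-Hochberg adjustment over 11 ratios and sums). Short transcripts as a class were higher in APP/PS1, with a median log2 change of 0.61 in the shortest of 10 length bins, which holds all 8 genes (effective lengths of 343 nt for S100a8 and 474 nt for S100a9). The part of length in the ratio was not tested.

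The stefin A genes lie on chromosome 16 within 299 kb. Stfa2l1, Cstdc4 and Stfa1 are read from the plus strand, and Cstdc5, Stfa2 and Stfa3 from the minus strand. In order of position they are Stfa2l1 (chr16:36156811-36161948), Cstdc4 (chr16:36184212-36188111), Stfa1 (chr16:36277148-36285371), Cstdc5 (chr16:36359382-36367570), Stfa2 (chr16:36403946-36408363) and Stfa3 (chr16:36450537-36455392). The 100 bases before each annotated start are shown because they hold the longest stretch that all 6 promoters share, in capitals. They come from the same RefSeq table, at chr16:36156711-36156810 (plus strand), chr16:36184112-36184211 (plus strand), chr16:36277048-36277147 (plus strand), chr16:36367571-36367670 (minus strand), chr16:36408364-36408463 (minus strand) and chr16:36455393-36455492 (minus strand), 5′ to 3′ on the strand of the gene.
Stfa2l1: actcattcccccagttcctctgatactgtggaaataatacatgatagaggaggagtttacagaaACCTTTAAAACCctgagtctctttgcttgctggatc
Cstdc4: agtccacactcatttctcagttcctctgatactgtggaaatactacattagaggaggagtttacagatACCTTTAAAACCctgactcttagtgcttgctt
Stfa1: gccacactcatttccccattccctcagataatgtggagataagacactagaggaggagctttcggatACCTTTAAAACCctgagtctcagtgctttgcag
Cstdc5: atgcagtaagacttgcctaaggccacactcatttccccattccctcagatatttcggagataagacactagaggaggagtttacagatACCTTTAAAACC
Stfa2: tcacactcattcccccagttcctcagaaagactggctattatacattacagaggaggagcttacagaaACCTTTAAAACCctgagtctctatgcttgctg
Stfa3: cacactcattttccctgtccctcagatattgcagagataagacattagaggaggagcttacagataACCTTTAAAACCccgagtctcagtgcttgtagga
The shared stretch ACCTTTAAAACC begins at position -36 in Stfa2l1, -32 in Cstdc4, -33 in Stfa1, -12 in Cstdc5, -32 in Stfa2 and -34 in Stfa3. It was chosen after the sequences were seen, and 0.0335% of all promoters hold it, namely those of 11 genes, 8 of which carry Stfa, Csta or Cstdc names. In the full 300 bases, which reach beyond those shown, the PU.1 letters were in all 6 of these promoters (28.3% of all promoters). The C/EBP letters were in those of Stfa1 and Cstdc5 (10.8%). These matches are not marked above, and promoters that are close copies do not give independent matches. Over the 300 bases the 6 promoters were 67.8% to 90.5% identical in pairs, against 51.0% for S100a8 and S100a9.

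Stfa2l1 had the highest mean level of the 6 in each group. Its counts were 77.0, 89.9 and 73.5 in wild type, 42.0, 11.96 and 34.5 in APP/PS1 and 249, 244 and 265 in cKO. The groups did not overlap, and APP/PS1 library 2 lay far below the other libraries of its group. Its level was 25.5 TPM ± 2.71 in wild type, 7.86 TPM ± 4.21 in APP/PS1 and 74.6 TPM ± 3.13 in cKO (SD, n = 3). Stfa2l1 fell in APP/PS1 against wild type by a log2 change of -1.30 (SE 0.26, edgeR adjusted p = 0.000585), and by -0.92 (edgeR adjusted p = 5.11e-05) without APP/PS1 library 2. Its log2 difference in cKO was 3.04 (SE 0.21) from APP/PS1 and 1.74 (SE 0.17) from wild type.

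Cstdc4, a stefin A-like gene next to it, had 65.4, 70.9 and 56.6 counts in wild type, 30.6, 18.2 and 27.2 in APP/PS1 and 157, 162 and 156 in cKO. No groups overlapped, and the 3 cKO libraries were within 6 counts of each other. Its level was 20.5 TPM ± 2.37, 6.74 TPM ± 1.76 and 46.8 TPM ± 0.870 in wild type, APP/PS1 and cKO (SD, n = 3). Cstdc4 fell in APP/PS1 against wild type by -1.21 on the log2 scale (SE 0.18, edgeR adjusted p = 2.84e-06). For Cstdc4 in cKO the log2 difference was 2.59 (SE 0.16) from APP/PS1 and 1.38 (SE 0.13) from wild type, the smallest of the 8 against wild type.

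Stfa1, a numbered copy of the stefin A gene, had 24.7, 26.8 and 18.5 counts in wild type, 12.9, 7.38 and 12.9 in APP/PS1 and 66.9, 58.6 and 60.3 in cKO. The groups were again apart, with APP/PS1 library 2 lowest. Its level was 7.36 TPM ± 1.38, 2.92 TPM ± 0.855 and 18.1 TPM ± 1.49 in wild type, APP/PS1 and cKO (SD, n = 3). Stfa1 fell in APP/PS1 against wild type by -0.97 (log2, SE 0.28, edgeR adjusted p = 0.00498). For Stfa1 in cKO the log2 difference was 2.44 (SE 0.24) from APP/PS1 and 1.47 (SE 0.21) from wild type.

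Stfa2 had 16.03, 10.9 and 26.5 counts in wild type, 0, 4.04 and 4.10 in APP/PS1 and 71.6, 60.3 and 66.1 in cKO. The groups did not overlap, but the APP/PS1 level rested on a handful of estimated counts. Its level was 5.53 TPM ± 2.43, 0.70 TPM ± 0.606 and 19.03 TPM ± 1.80 in wild type, APP/PS1 and cKO (SD, n = 3). Stfa2 fell in APP/PS1 against wild type by -2.54 (log2, SE 0.50, edgeR adjusted p = 0.000114), and by -1.99 without APP/PS1 library 1, where its estimated count was 0. On log2(FPKM + 1) the change was -1.32. Its log2 difference in cKO was 4.52 (SE 0.39) from APP/PS1, which became 3.97 without APP/PS1 library 1, and 1.98 (SE 0.27) from wild type.

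Cstdc5 and Stfa3 had the lowest means of the 6 in wild type and cKO, while Stfa2 was the lowest in APP/PS1. Cstdc5 had 15.3, 1.20 and 8.93 counts in wild type, 3.06, 7.62 and 3.11 in APP/PS1 and 61.7, 24.2 and 45.1 in cKO. Wild type and APP/PS1 overlapped, and the cKO libraries were more than 2-fold apart. Its log2 difference in APP/PS1 from wild type was -0.69 (SE 0.87), and 0.04 without wild type library 1. Its log2 difference in cKO was 3.15 (SE 0.64) from APP/PS1 and 2.46 (SE 0.57) from wild type, and these became 3.76 without APP/PS1 library 2 and 3.19 without wild type library 1. Stfa3 had 10, 4 and 8 counts in wild type, 3, 5.76 and 4 in APP/PS1 and 38.98, 19.98 and 29.4 in cKO. Here too wild type and APP/PS1 overlapped, with a log2 difference of -0.61 (SE 0.51). Cstdc5 and Stfa3 passed the filter on low counts only through the cKO libraries, so no p is given for either in APP/PS1 against wild type. The log2 difference of Stfa3 in cKO was 2.68 (SE 0.39) from APP/PS1 and 2.07 (SE 0.35) from wild type.

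**Figure D2:**
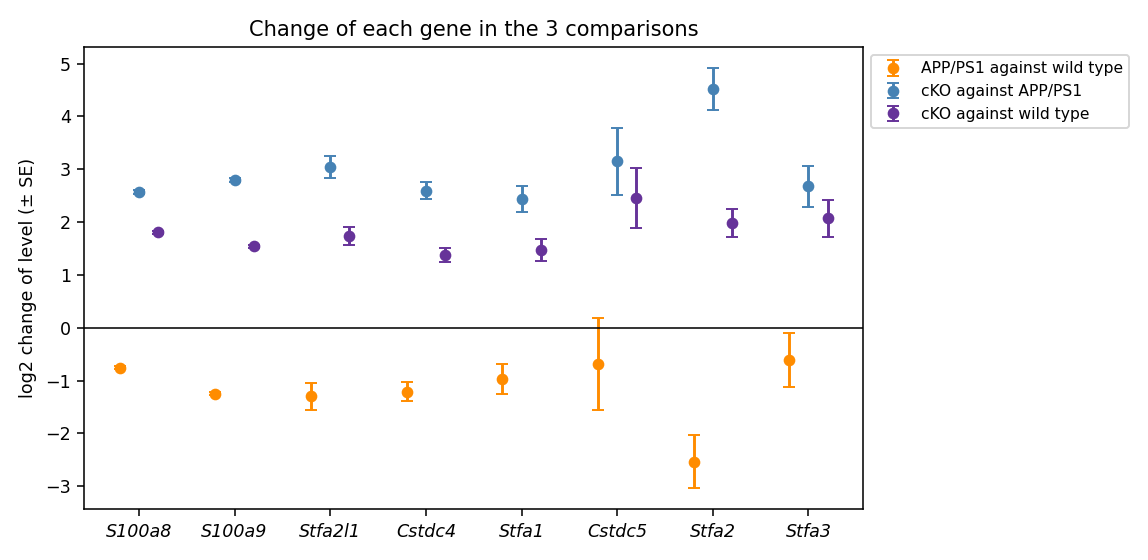
Log2 change of each gene in the 3 comparisons with its standard error, from the edgeR fit. Stfa2l1 to Stfa3 have wider error bars than the calprotectin genes, whose changes in APP/PS1 against wild type were -0.76 and -1.25. The cKO comparisons share their libraries with the choice of genes and with each other.

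The sizes of these changes depended on how transcript length was treated. With offsets by length bin, the log2 changes in APP/PS1 against wild type became -1.40 for S100a8, -1.89 for S100a9, -1.94 for Stfa2l1, -1.85 for Cstdc4, -1.60 for Stfa1 and -3.16 for Stfa2.

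Together, the 6 stefin A genes summed to 66.7, 64.5 and 60.3 TPM in wild type, 24.5, 14.3 and 22.6 TPM in APP/PS1 and 191, 166 and 181 TPM in cKO. Per 1000 TPM of calprotectin this was 9.25, 9.02 and 8.46 in wild type, 8.97, 5.31 and 8.08 in APP/PS1 and 9.41, 8.42 and 9.08 in cKO. The groups overlapped on this scale, and APP/PS1 library 2 lay far below the other 8 libraries. The mean ratio was 8.91 ± 0.407 in wild type and 7.45 ± 1.91 in APP/PS1 (SD, n = 3; two-sided exact permutation p = 0.2, and 0.314 after the same adjustment). Between libraries of the same number it was lower in APP/PS1 in 3 of 3 (exact paired sign-flip p = 0.25, the smallest that 3 pairs allow, in a test added after the data were seen). The order of the genes by mean TPM was Stfa2l1, Cstdc4, Stfa1, Stfa2, Cstdc5 and Stfa3 in wild type. In wild type, the ranges of Stfa1 and Stfa2 overlapped, as did those of Stfa2 and Cstdc5 and those of Cstdc5 and Stfa3. In cKO the order was Stfa2l1, Cstdc4, Stfa2, Stfa1, Cstdc5 and Stfa3, and each gene from Stfa2 on overlapped the next. Stfa2l1 and Cstdc4 were apart in both of those groups and overlapped in APP/PS1, where Stfa1 came next, Cstdc5 and Stfa3 had equal means of 1.14 TPM and Stfa2 was last.

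The stefin A genes are close copies, which limits how far their counts can be told apart. Their coding sequences were 75.1% to 98.0% identical in pairs, with a median of 80.2% over 15 pairs. Stfa1 and Cstdc5 were 98.0% identical and Stfa2l1 and Stfa2 96.5%, whereas S100a8 and S100a9 were 53.2% identical. A coding stretch of the length of a read, 50 nt, is shown for the 6 genes because it lets the difference be seen directly, from the GENCODE mouse transcripts (GRCm38), 5′ to 3′. It covers coding positions 72 to 121 of Stfa2l1, Stfa2 and Stfa3 and 54 to 103 of Cstdc4, Stfa1 and Cstdc5, and crosses an exon junction in each. Capitals mark bases that differ from Stfa2l1.
Stfa2l1: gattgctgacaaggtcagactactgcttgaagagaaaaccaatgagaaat
Cstdc4: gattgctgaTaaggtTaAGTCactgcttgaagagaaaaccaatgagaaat
Stfa1: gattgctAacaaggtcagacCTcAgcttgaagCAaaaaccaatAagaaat
Cstdc5: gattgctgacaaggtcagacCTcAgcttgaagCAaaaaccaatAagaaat
Stfa2: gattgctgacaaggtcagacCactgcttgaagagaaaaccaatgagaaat
Stfa3: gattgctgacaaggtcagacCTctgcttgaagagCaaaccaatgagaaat
Stfa2 differed from Stfa2l1 at 1 base of the 50, Stfa3 at 3, Cstdc4 and Cstdc5 at 6 and Stfa1 at 7. Over whole transcripts cut into all stretches of 50 nt, the share found without mismatch in a transcript of another gene was 24.6% for Stfa2l1, 35.6% for Cstdc4, 22.5% for Stfa1, 48.9% for Cstdc5 and 15.9% for Stfa2. No such stretch was found for Stfa3, S100a8 or S100a9. The search with up to 2 mismatches covered only transcripts of the 2 cluster regions in their own direction, and not all transcripts as before. Within it the share was 79.7% for Stfa2l1, 70.4% for Cstdc4, 80.0% for Stfa1, 85.1% for Cstdc5, 58.1% for Stfa2 and 6.61% for Stfa3. It was 0 for S100a8 and S100a9. The 2 searches are therefore not compared. The deposited counts carry decimals, and 13 of the 54 stefin A values (24.1%) were within 0.05 of a whole number, against 45.5% over the 9028 genes with a mean of 5 to 500 counts. Stfa3 had 77.8% of its values whole, and Cstdc4, Stfa1 and Cstdc5 had none. How the authors divided shared reads is not given in the sources used here, so single values of every stefin A gene but Stfa3 are uncertain.

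**Figure D3:**
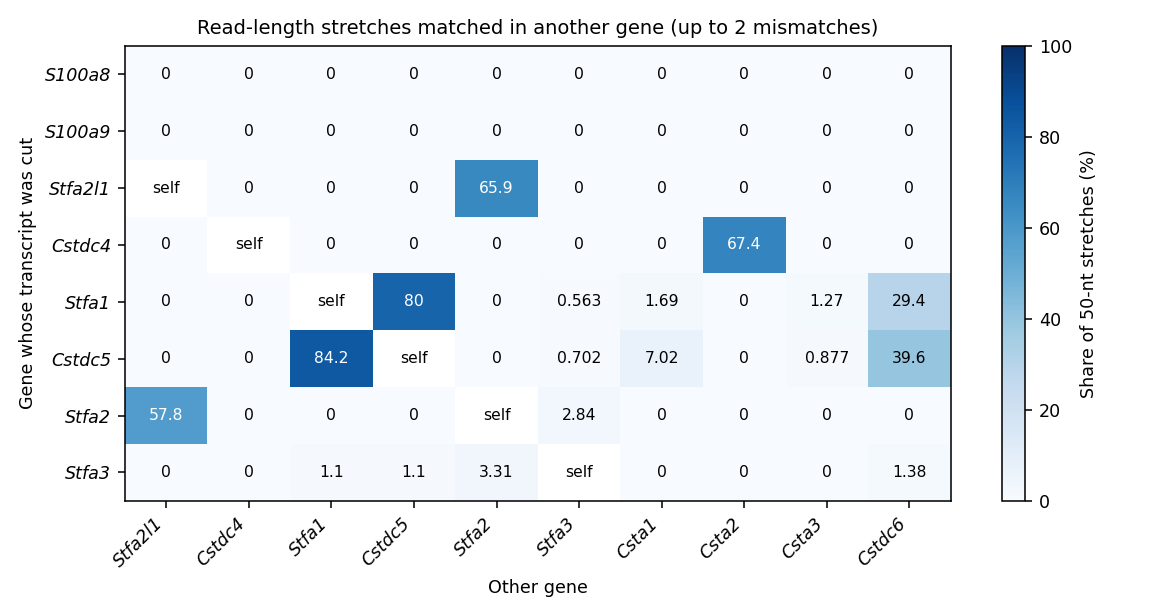
Share of the 50-nt stretches of each gene's transcripts (rows) that match a transcript of another gene of the family (columns) with up to 2 mismatches, in percent. The closest pairs are Cstdc5 with Stfa1 (84.2%), Stfa1 with Cstdc5 (80.0%), Cstdc4 with Csta2 (67.4%) and Stfa2l1 with Stfa2 (65.9%), and both calprotectin genes stand at 0. Family genes outside this grid that share stretches are not drawn.

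Summing the closest copies before the fit, an alternative added after the data were seen, removed the division within a pair. Stfa2l1 and Stfa2 together had 93 to 101 counts in wild type, 16 to 42 in APP/PS1 and 304 to 331 in cKO, a log2 change of -1.46 in APP/PS1 against wild type (SE 0.19, edgeR adjusted p = 1.41e-06). Stfa1 and Cstdc5 together had 27 to 40, 15 to 16 and 83 to 129 counts in the same order, a change of -0.88 (SE 0.26, edgeR adjusted p = 0.00568). Cstdc4 and Csta2 together had 67 to 80, 24 to 35 and 170 to 180 counts, a change of -1.21 (SE 0.16, edgeR adjusted p = 4.82e-07). The 3 sums were lower in APP/PS1 than in wild type without overlap, and their log2 differences in cKO from APP/PS1 were 3.25, 2.70 and 2.51.

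The other stefin A rows of the table were near the floor. Csta2, which lies between Cstdc4 and Stfa1 and shares most with Cstdc4, had 14.8, 8.54 and 10.3 counts in wild type, 4.41, 5.84 and 2.85 in APP/PS1 and 12.5, 18.2 and 16.9 in cKO. Its wild type and cKO libraries overlapped, and its APP/PS1 libraries were the lowest. The fitted log2 change of Csta2 in APP/PS1 against wild type was -1.23 (SE 0.43), and at these counts no p is given. Cstdc6 had 1.39, 1.55 and 1.5 counts in cKO and 0 in the other 6 libraries. Csta1, Csta3 and Cstdc2 had no more than 2 counts in any library and were not tested.

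Genes beside the clusters did not all move with them. The nearest tested neighbours of the calprotectin genes were S100a6 on the lower side (chr3:90612894-90614414) and S100a11 on the higher side (chr3:93520496-93526288). Both had the same order of groups, but S100a11 lies much farther from the calprotectin genes than S100a6. S100a6, another calcium-binding S100 protein, fell in APP/PS1 against wild type by -0.93 (log2, SE 0.07, edgeR adjusted p = 5.73e-12), with a log2 difference of 2.84 (SE 0.06) in cKO from APP/PS1. S100a11 fell by -1.43 (log2, SE 0.05, edgeR adjusted p = 9.45e-19), with 2.34 (SE 0.05) in cKO from APP/PS1. S100a13 and S100a16, farther on the lower side, were called higher in APP/PS1 by the same test, with log2 changes of 1.53 and 1.07 in APP/PS1 against wild type and -1.05 and -0.58 in cKO from APP/PS1. Beside the stefin A genes, Ccdc58 rose in APP/PS1 against wild type by 0.77 (log2, SE 0.14, edgeR adjusted p = 2.57e-05). On the other side Cd86, a costimulatory receptor, rose by 0.36 (log2, SE 0.04, edgeR adjusted p = 3.06e-09). Neither of these bordering genes was higher in cKO than in APP/PS1 (log2 differences of -0.63 and -0.40).

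**Figure D4:**
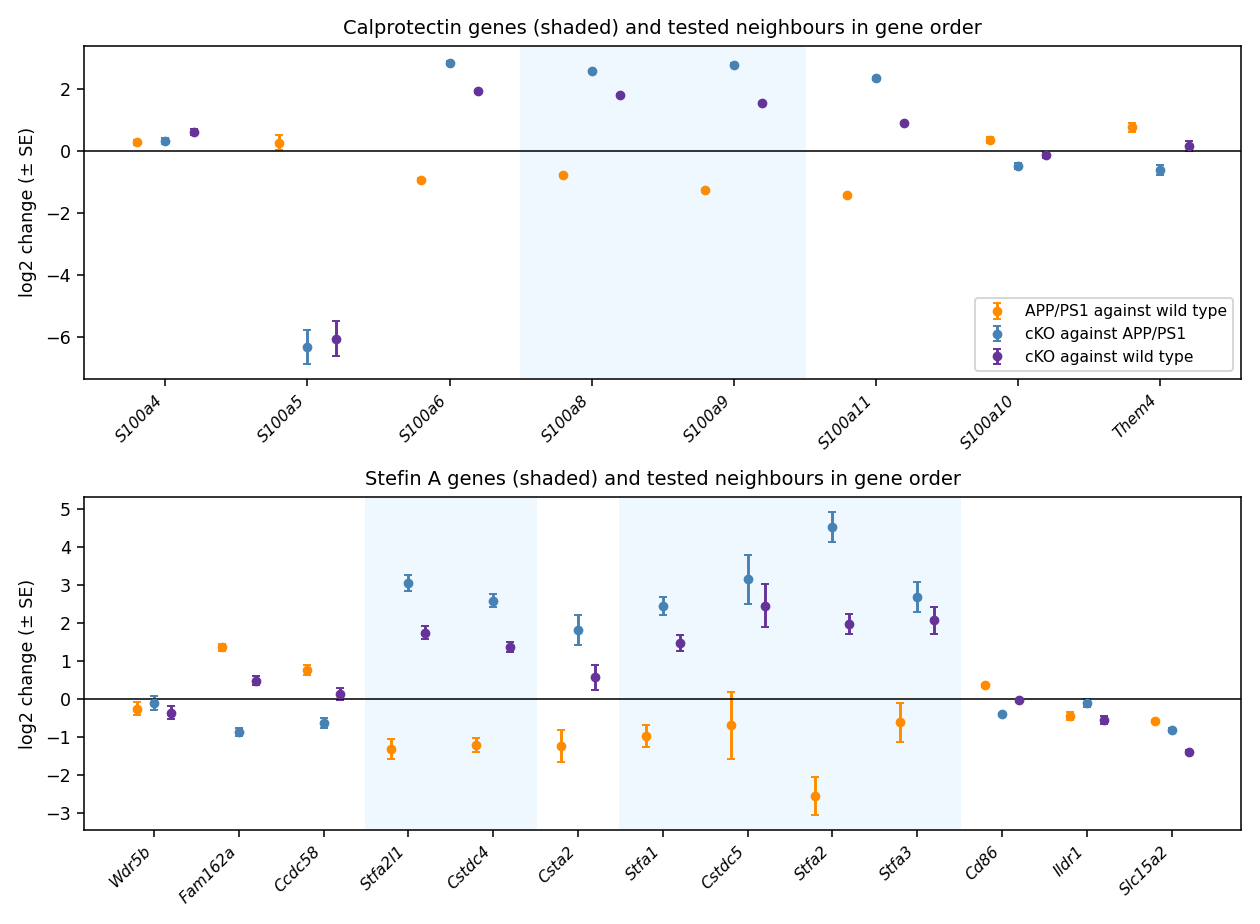
Log2 changes with standard errors of the calprotectin genes (upper panel, shaded), the stefin A genes (lower panel, shaded) and the 3 nearest tested neighbours on each side, plus Csta2, in gene order and not to distance. S100a6 and S100a11 lie on the same side of 0 as the calprotectin genes in all 3 comparisons, with S100a11 at 0.91 and the calprotectin genes at 1.81 and 1.54 in cKO against wild type, while Ccdc58 and Cd86 beside the stefin A genes lie on the other side of 0 in APP/PS1 against wild type.

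Markers of neutrophils moved with the 8 genes. All 10 mature neutrophil markers (among them Ly6g, Retnlg, Mmp8 and Cxcr2) were called lower in APP/PS1 than in wild type by the edgeR quasi-likelihood test. This held for 32.0% of all tested genes. The median log2 change of the markers was -1.57, against -0.04 over all tested genes. All 10 were called higher in cKO than in APP/PS1 (median 2.87), as were 27.3% of all tested genes. Against wild type 9 of 10 were called higher in cKO (median 1.36), as were 24.7% of all tested genes. The summed level of these markers was 1375 to 1401 TPM in wild type, 508 to 546 in APP/PS1 and 2366 to 2457 in cKO, and none was at 3 counts or fewer in any group. All 10 neutrophil granule markers, which include genes of immature cells, were called lower in APP/PS1 than in wild type (median -3.86) and summed to 3534 to 3589, 481 to 495 and 8522 to 8692 TPM. Against wild type, cKO had 5 of them called higher (Ltf, Camp, Ngp, Lcn2 and Cd177) and 5 called lower (Elane, Mpo, Prtn3, Ctsg and Ms4a3). Of all tested genes, 24.7% were called higher and 23.0% lower there. Of 5 monocyte markers, 4 were called lower in APP/PS1 than in wild type (32.0% of all tested genes were). The same 4 were called higher in cKO than in APP/PS1 (27.3% of all tested genes were). They summed to 397 to 421, 107 to 129 and 466 to 500 TPM. Of 4 tested B cell markers, 3 were called lower in APP/PS1 than in wild type (median -2.44), as were 32.0% of all tested genes. In cKO 3 were called higher than in APP/PS1 (median 1.26), as were 27.3% of all tested genes. B cell markers summed to 43.1 to 47.4, 14.1 to 16.1 and 30.3 to 32.0 TPM. Markers of T and NK cells summed to 44.3 to 47.5, 39.1 to 39.5 and 31.9 to 35.4 TPM. Of the 3 tested, 2 were called higher and none lower in APP/PS1 than in wild type, beside 26.9% and 32.0% of all tested genes. With library totals, FPKM, TPM or length offsets, 1 was called higher and 1 lower. Astrocyte markers summed to 107 to 113, 116 to 121 and 115 to 119 TPM. All 4 were called higher in APP/PS1 than in wild type (median 0.82), as were 26.9% of all tested genes. This count was 3 with library totals or FPKM, and on TPM 2 were called higher and 1 lower. Basophil and mast cell markers summed to 292 to 328, 27.9 to 30.2 and 220 to 235 TPM. Erythroid markers had another order, with 4671 to 4859, 732 to 815 and 318 to 356 TPM. Keratinocyte markers, listed because the epidermis also makes calprotectin and stefin A, summed to at most 5.11 TPM in any library. The part of other white blood cells in the levels of the 8 genes was not tested.

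Per TPM of the mature neutrophil markers, calprotectin was at 5.25, 5.11 and 5.12 in wild type, 5.38, 4.95 and 5.12 in APP/PS1 and 8.27, 8.32 and 8.24 in cKO. Wild type and APP/PS1 overlapped on this scale, and the cKO libraries lay above both. Csf3r, the receptor of granulocyte colony-stimulating factor, made up 34.6 to 38.2% of this marker sum in wild type, 56.2 to 58.8% in APP/PS1 and 17.5 to 19.98% in cKO. Without Csf3r, left out after the values were seen, the ratio was 8.02 to 8.28 in wild type, 11.6 to 12.4 in APP/PS1 and 10.02 to 10.37 in cKO, so APP/PS1 was then the highest group. Per TPM of the granule markers, calprotectin was at 2.01 to 2.02 in wild type, 5.53 to 5.81 in APP/PS1 and 2.30 to 2.34 in cKO. On that scale too APP/PS1 was the highest group, so the ratio of calprotectin to neutrophil markers depended on which markers were taken. The stefin A sum per TPM of mature markers was 0.0433 to 0.0485 in wild type, 0.0263 to 0.0483 in APP/PS1 and 0.0700 to 0.0778 in cKO. Without Csf3r it was 0.0700 to 0.0742, 0.0619 to 0.110 and 0.0872 to 0.0943 in the same order, and cKO then overlapped APP/PS1.

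**Figure D5:**
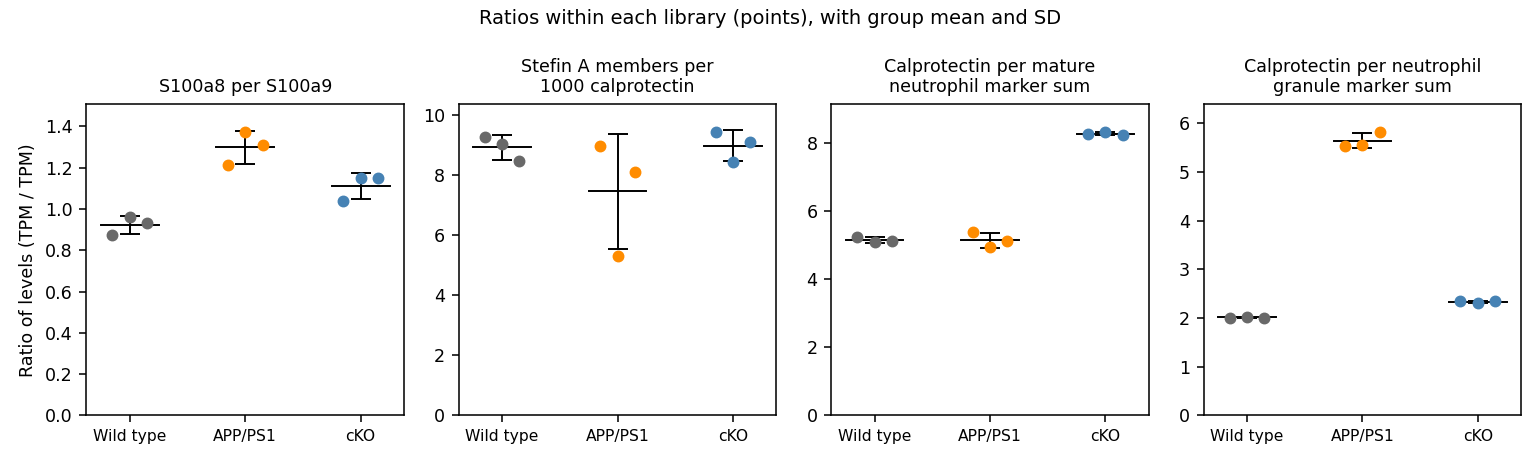
Ratios of TPM levels within each library (points: libraries; line: mean; error bar: SD). S100a8 per S100a9 is lowest in wild type, the stefin A sum per calprotectin overlaps between groups, and calprotectin stands highest in cKO per mature marker with Csf3r in the sum (8.24 to 8.32) but in APP/PS1 per granule marker (5.53 to 5.81).

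The genes whose profile over the 9 libraries was most like that of S100a9 were sought outside the 8 genes, among 13587 genes with a mean of at least 1 CPM (a level scaled to the library total), by the root mean square difference of centred log2(CPM + 0.5). The nearest were Ly6g at 0.08, the neutrophil surface marker, Camp at 0.10, the precursor of an antimicrobial peptide, Acod1 at 0.10, the enzyme that makes itaconate, Retnlg at 0.10 and Pygl at 0.11. S100a8 itself was at 0.21 from S100a9. For Stfa2l1 the nearest were Slco4c1 at 0.24, Gpat3 at 0.27, Acod1 at 0.32, Chil5 at 0.33 and Orm1 at 0.33. The added 0.5 understates changes of genes near it, and Slco4c1 and Gpat3 had means of 0.163 and 0.471 CPM in APP/PS1. Their fitted log2 changes in APP/PS1 against wild type were -2.48 and -2.05, against -1.17 for Acod1 and -1.30 for Stfa2l1, so the order of likeness depends on the scale. Among the 8 genes, Cstdc4 was at 0.30 and S100a9 at 0.31 from it. Acod1 was in both sets. Its level was 54.5 CPM ± 0.961 in wild type, 24.2 CPM ± 0.652 in APP/PS1 and 184 CPM ± 5.99 in cKO (SD, n = 3).

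The receptors and partners of calprotectin were called in both directions. Of 12 receptor and adaptor genes, 5 were called higher and 5 lower in APP/PS1 than in wild type (edgeR, with 26.9% of all tested genes called higher), with a median log2 change of 0.09. In cKO against APP/PS1, 4 were called higher (27.3% of all tested genes were) and 6 lower (27.7%), with a median of -0.15. On TPM the balance turned in that comparison, with 5 higher and 2 lower (median 0.04), and in APP/PS1 against wild type it was 4 higher and 7 lower on TPM (median -0.29) and 7 higher and 5 lower with length offsets (median 0.17). Against wild type, 4 were called higher (24.7%) and 4 lower (23.0%), with a median of 0.02. Emb, which encodes embigin, had the order of the 8 genes, at 42.0 CPM ± 0.668 in wild type, 18.9 CPM ± 0.235 in APP/PS1 and 63.5 CPM ± 2.82 in cKO (SD, n = 3). Ly96, the partner of TLR4, had the opposite order between wild type and APP/PS1, with 5.01 CPM ± 0.794 and 12.0 CPM ± 1.05 (log2 1.26, edgeR adjusted p = 1.69e-10). Tlr4 itself did not pass in that comparison (log2 0.09, edgeR adjusted p = 0.109).

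Other genes of the S100 family were called in both directions. The 12 other S100 genes in the table summed to 554 to 588 TPM in wild type, 374 to 390 in APP/PS1 and 968 to 990 in cKO, the order of the 8 genes. Of 9 other tested S100 genes, 6 were called higher and 2 lower (S100a6 and S100a11) in APP/PS1 than in wild type (median log2 change 0.36). Of all tested genes, 26.9% were called higher and 32.0% lower. In cKO against APP/PS1, 3 of the 9 were called higher and 6 lower (median -0.56), beside 27.3% and 27.7% of all tested genes. In cKO against wild type, 6 of the 9 were called higher and 1 lower (median 0.49), beside 24.7% and 23.0%. Of these 9 genes, 8 lie in the shortest length bin, whose median over all its genes was 0.61 in APP/PS1 against wild type and -0.52 in cKO against APP/PS1. With length offsets, 4 were called higher and 4 lower in APP/PS1 than in wild type and the median turned to -0.28, and in cKO against APP/PS1 3 were called higher and 4 lower (median -0.08). The inhibitors Cstb (stefin B), Cst3 (cystatin C) and Cst7 (cystatin F) were all called higher in APP/PS1 than in wild type (median 1.15). This held for 26.9% of all tested genes. All 3 were called lower in cKO than in APP/PS1 (median -0.64), as were 27.7% of all tested genes. Against wild type all 3 were called higher in cKO (median 0.46), as were 24.7%. They too lie in the shortest bin, and with length offsets they kept these calls with medians of 0.51, -0.14 and 0.32 in the 3 comparisons. Cstb, the closest of them to stefin A in kind, was at 40.2 CPM ± 2.92 in wild type, 86.3 CPM ± 1.79 in APP/PS1 and 55.3 CPM ± 2.14 in cKO (SD, n = 3). Cst7 rose most, by 6.49 on the log2 scale in APP/PS1 against wild type (SE 0.04, edgeR adjusted p = 1.32e-34). Of 10 cysteine cathepsins, the proteases that stefins inhibit, 7 were called higher and 2 lower in APP/PS1 than in wild type (median 0.58). Over all tested genes the shares were 26.9% and 32.0%. In cKO 2 were called higher and 7 lower than in APP/PS1 (median -0.28), beside 27.3% and 27.7% of all tested genes. The counts in cKO against APP/PS1 became 3 higher and 3 lower on TPM (median -0.05) and 2 higher and 5 lower with length offsets (median -0.17). In cKO against wild type, 6 cathepsins were called higher and 3 lower (median 0.18), beside 24.7% and 23.0% of all tested genes. Over all tested genes the medians were -0.04 in APP/PS1 against wild type and -0.01 in both cKO comparisons. Ctsl, cathepsin L, rose in APP/PS1 against wild type by 1.54 (log2, SE 0.03, edgeR adjusted p = 6.47e-24), and was lower in cKO than in APP/PS1, with a log2 difference of -0.47 (SE 0.03, edgeR adjusted p = 5.71e-13).

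All 6 listed myeloid transcription factors were called lower in APP/PS1 than in wild type, where 32.0% of all tested genes were, with a median log2 change of -0.30 against -0.04 over all tested genes. In cKO against APP/PS1, 5 of 6 were called higher, where 27.3% of all tested genes were, with a median of 0.33 against -0.01. Cebpe, which drives the late genes of granulocyte maturation, had the widest range of the 6 on the log2 scale. Its level was 3.69 CPM ± 0.0602 in wild type, 0.541 CPM ± 0.0583 in APP/PS1 and 9.23 CPM ± 0.755 in cKO (SD, n = 3). It fell in APP/PS1 against wild type by -2.75 (log2, SE 0.20, edgeR adjusted p = 4.12e-12). Spi1, which encodes PU.1 and is also used by microglia, was at 313 CPM ± 10.3, 275 CPM ± 4.72 and 324 CPM ± 4.45 in wild type, APP/PS1 and cKO (SD, n = 3). Against wild type, cKO had Cebpa and Cebpe called higher, Cebpd called lower and the other 3 not called.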

How the data were processed

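The 9 libraries were grouped by genotype and numbered as in the labels, which do not say whether libraries came from separate animals, so p-values measure only the spread between these samples. The deposited table holds, per the file headers, estimated counts, FPKM, TPM and normalised counts for each library. The deposited normalised counts, a signal, were not tested; in each library they are a fixed multiple of the rounded-up estimate. The submitters' processing notes name HISAT, Bowtie2, DESeq2 and the GRCm38.p6 build, and the counting program and annotation are not given in the sources used here. The design had assumed plain counts, and rounding turned the deposited estimated counts into whole numbers. The edgeR 4.0.16 quasi-likelihood test (R 4.3.3) used TMM scaling, filterByExpr, robust dispersion and all 9 libraries, with Benjamini-Hochberg adjustment over all 14696 tested genes and a threshold of 0.05. Levels between genes are compared on the deposited TPM values, and log2 changes come from the edgeR fit on rounded counts. Deposited FPKM and TPM values were also tested on the log2 scale with limma 3.58.1 at pseudocounts of 1 or 0.1. The fit was tested on simulated data.

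The genes and lists were chosen with earlier results of these data known. Named genes are the 8 genes, other stefin A rows, the 5 tested neighbours on each side of each cluster, the 5 genes most like S100a9 and Stfa2l1, and list members with the largest changes. Tlr4, Spi1 and Cstb were named after their values were seen. Promoters came from RefSeq and transcripts from GENCODE, matched for all 8 genes, and identities were computed with biopython 1.88. Alternatives were DESeq2 1.42.0 (size factors and Wald test), library totals, other filters, only the groups compared, FPKM or TPM, length offsets, the replicate block and leaving out each library.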

Additional observations from a re-analysis of the deposited data

How the results depend on the processing

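The count of genes called lower in APP/PS1 against wild type ran from 4 to 7 over 21 alternatives and was 6 without each library in turn. It was 4 of 4 tested with at least 10 counts in every library, 6 of 6 with only the 2 groups compared, and 7 with length offsets, where the added gene was Stfa3, which was tested only through its cKO counts and not in the fit of the 2 groups. Under that same minimum of 10 counts, 4 of 4 tested genes were higher in cKO than in APP/PS1 and 4 of 4 than in wild type, because Stfa1, Cstdc5, Stfa2 and Stfa3 were not tested. Leaving out any library kept these counts at 8. Of 514 single-gene values under 22 alternatives, including the sums of close copies added after seeing the data, none of the calls in APP/PS1 against wild type was lost and 3 were gained (Stfa3 with length offsets, with and without the block, and Cstdc5 summed with Stfa1). In the cKO comparisons 70 values moved by at least the spread between replicates, as did 39 of 162 in APP/PS1 against wild type under the 21 alternatives without those sums; on log2(FPKM + 1), cKO against APP/PS1 was 2.90 for Stfa2 in place of 4.52, 2.02 for Cstdc5 in place of 3.15 and 1.66 for Stfa3 in place of 2.68. In 1 value the sign changed: Cstdc5 in APP/PS1 against wild type was 0.04 without wild type library 1, in a range of -1.30 to 0.04 over the libraries left out. Its counts were low (1.20 to 15.3 in wild type). Libraries with the same number deviated together (mean correlation across 10813 genes 0.19 over 9 pairs, lowest 0.05; 18 of 18 best with their own number), a hint from the data, as the labels state no pairing. For wild type with APP/PS1 the 3 correlations were 0.14 to 0.28. With the number fitted as a replicate block, 6 genes were again called lower in APP/PS1 and the biological coefficient of variation was 0.988% in place of 3.14%. The share of called genes that were higher in APP/PS1 than in wild type was 45.7%, and 29.5% with library totals, 30.6% on FPKM and 14.9% on TPM. Over all tested genes, 32.0% were called lower in the main fit, where 8670 of 14696 were called and 3960 of these were higher. Library totals gave 9765 of 14696 called and 2878 higher, and TPM gave 11504 of 18564 and 1717. A larger share of all genes was thus called lower there, and the count of 6 stands beside that higher background. The median log2 change of all genes was -0.04, -0.17 with library totals and -0.24 on TPM. On TPM, S100a8 changed by -1.15 and S100a9 by -1.64. In cKO against wild type the share of called genes that were higher was 51.9%, and 30.4% with library totals and 20.2% on TPM. In cKO against APP/PS1 it was 49.6%, and 75.3% on TPM. Low counts limit Cstdc5, Stfa2 and Stfa3.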

Other observations

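The library numbered 1 had the lowest S100a8 to S100a9 ratio of its group in each of the 3 groups (0.876 in wild type, 1.21 in APP/PS1 and 1.04 in cKO, TPM scale). S100a5, the second tested neighbour below S100a8, had 1.58 CPM ± 0.381 in wild type and 1.90 CPM ± 0.253 in APP/PS1, and 0.0174 CPM ± 0.0301 in cKO (SD, n = 3). Eaf2, on the side of the stefin A cluster with higher coordinates, fell in APP/PS1 against wild type by 1.44 on the log2 scale (SE 0.13, edgeR adjusted p = 3e-10).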
